A study of Rattus norvegicus with 4 samples.

Results

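Potassium channel subunit genes were taken as all entries of the deposited expression table whose symbol begins with Kcn, leaving out 1 that is not analysed here. They numbered 88 of 17853 genes. Brains of rats after intracerebral hemorrhage (bleeding within the brain) were sampled, in 4 groups of 1 library each. The groups were ipsilateral brain (the side of the bleeding) at 21 months of age, called old, contralateral brain (the opposite side) at 21 months, ipsilateral brain at 13 months, called adult, and contralateral brain at 13 months. All 4 groups came from rats with hemorrhage, so the contralateral side is tissue of an injured brain and not of an uninjured rat. Per the labels' protocols, equal amounts of RNA from 9 rat brains were pooled, so that spread between rats cannot be seen. Strain, sex, hemorrhage model, brain region and time after the bleeding are not given in the labels. There were no replicates.

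Potassium channels let potassium leave or enter cells along its gradient. In neurons the voltage-gated (Kv) channels end the action potential and set firing patterns, while tandem-pore (K2P) and inwardly rectifying (Kir) channels set the resting potential. Astrocytes use Kir channels to take up potassium that active neurons release, and microglia and lymphocytes use calcium-activated and K2P channels in migration, cytokine release and calcium entry. A channel is built from pore-forming subunits, often with silent subunits that do not form channels alone and with auxiliary subunits that alter gating or transport to the membrane.

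Levels are RPKM, reads scaled by gene length and by the mapped total of the library, so that levels of different genes can be set side by side. The precision of single values is unknown because the table gives no read counts. Differences are log2 ratios after adding 1 RPKM, which understates the change of low genes, and a ratio of 1 library to another has no test. The libraries summed to between 388632 and 402100 RPKM, of which mitochondrially encoded genes took 18.5% to 24.1%, less on the ipsilateral side at both ages. The 13 month contralateral library stood apart in pineal markers, with 10.4 RPKM of Tph1, 6.05 of Gngt1 and 11.0 of Pde6g, against at most 1.27 RPKM of any of these in the other libraries. Neuron markers were abundant, as the brain label implies, with Snap25 at 298 RPKM or more in every library, although the neuronal enolase gene Eno2 was listed at 0.05 RPKM or less throughout.

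Of the 88 members, 61 averaged 1 RPKM or more across the libraries and were analysed with the 12136 genes that passed the same filter. The other 27 members reached at most 1.46 RPKM in any library, and 9 of them did not exceed 0.1 RPKM anywhere. The Kv beta subunit gene Kcnab2 (ENSRNOG00000011550, chromosome 5) was the most abundant, with 95.9 RPKM ipsilaterally against 85.1 RPKM contralaterally at 21 months, and 66.1 against 98.4 RPKM at 13 months. Kcnmb4, the neuronal beta subunit of the large-conductance calcium-activated (BK) channel, followed with 42.4 and 36.8 RPKM at 21 months and 27.3 and 41.6 RPKM at 13 months, in the same order. Auxiliary subunits thus led the list, and 17 members had a mean above 10 RPKM. Summed over all 88 members, levels were 550.3 RPKM ipsilaterally against 582.3 RPKM contralaterally at 21 months, and 456 RPKM against 612.6 RPKM at 13 months.

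**Figure D1:**
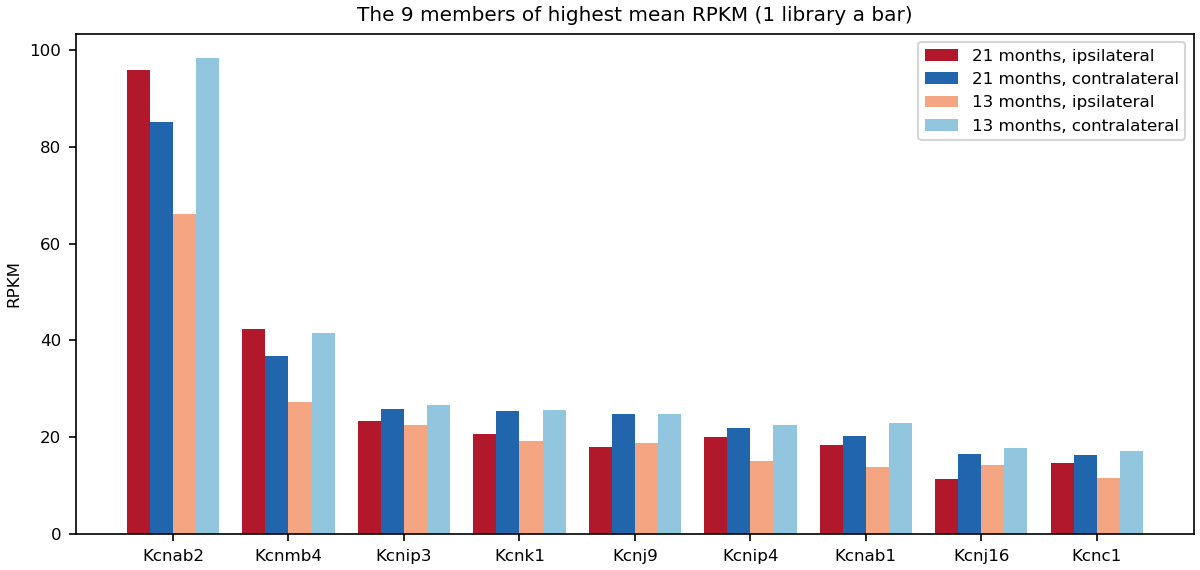
RPKM of the 9 members with the highest mean, in the 4 libraries (1 bar a library, no replicates; y axis in RPKM from 0). The 13 month ipsilateral bar is the lowest of the 4 for every member shown except Kcnj9 and Kcnj16, whose lowest bars are the 21 month ipsilateral ones (18.0 and 11.3 RPKM).

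The first comparison set the side of the bleeding against the other side at each age. Most members were lower ipsilaterally, slightly at 21 months and more at 13 months. At 21 months 41 of 61 members had a log2 ratio below 0, against 38.9% of all genes tested, and the median was -0.11, against 0.09 over all genes. At 13 months 55 of 61 were below 0, against 48.9% of all genes, and the median was -0.38, against 0.01. The reductions were shallow. Lower by at least 1.5-fold were 0 members at 21 months, against 1.8% of all genes, and 3 at 13 months, against 1.74%, namely Kcng1, Kcnab1 and Kcnmb4. By 2-fold or more 0 members were lower at either age, against 0.288% and 0.0659% of all genes at 21 and 13 months.

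Few members were higher. At least 1.5-fold higher were 2 members at 21 months, against 13.0% of all genes, and 3 at 13 months, against 12.9%. At least 2-fold higher were Kcnn4 at 21 months (1 member, against 5.62% of all genes) and Kcnn4 and Kcnk6 at 13 months (2 members, against 7.2%). Scaling the libraries in other ways shifted the all-gene median, at most by -0.10 at 21 months and -0.09 at 13 months. Values near 0 thus have no settled sign at either age. Relative to the all-gene median, 49 of 61 members were lower at 21 months and 56 of 61 at 13 months, and these counts were 48 and 55 under either other scaling.

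**Figure D2:**
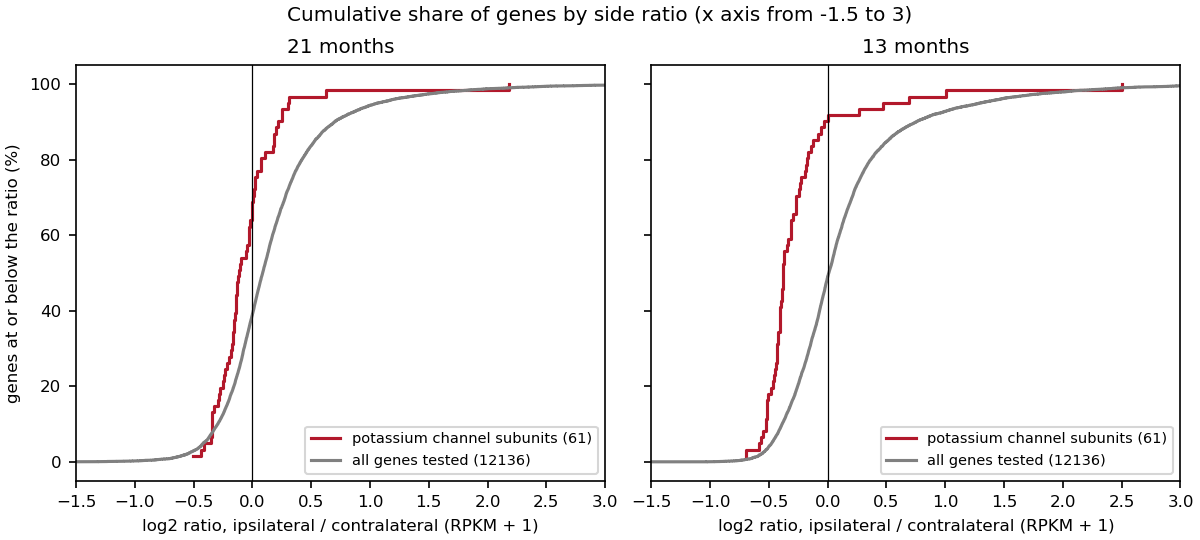
Cumulative share of genes (y axis, percent) at or below a log2 side ratio, ipsilateral over contralateral (RPKM + 1; x axis), for 61 potassium channel subunit genes (red) and all 12136 genes tested (grey), at 21 months (left) and 13 months (right). The red curve lies left of the grey one over most of its height, with medians of -0.11 and 0.09 at 21 months and of -0.38 and 0.01 at 13 months.

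Both ages were combined in limma, with age as an additive term, which uses the 2 libraries of each side and a spread pooled over genes. Of 61 members 3 rose on the ipsilateral side, against 13.3% of all genes tested, and 0 fell, against 0.824%, at a Benjamini-Hochberg adjusted p of 0.05. Without adjustment 11 of 61 members had a p under 0.05 and a lower value, against 543 of 12136 genes tested. With a higher value 4 of 61 members had such a p, against 2296 of 12136 genes. The residual of this fit is the age-by-side difference, with 1 degree of freedom, so members that differed less at 21 months count there as noisy, and a member that was not called is not shown to be the same on both sides. The 3 that rose, Kcnn4, Kcnk13 and Kcnk6, had contralateral means under 1 RPKM and passed the filter only through their ipsilateral values. Such genes had to differ to be tested, so their number, their adjusted p and their place among all genes are descriptions.

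Kcnn4 (ENSRNOG00000019440, chromosome 1) encodes the intermediate-conductance calcium-activated channel KCa3.1, found in microglia, macrophages, lymphocytes and red blood cells. It was listed at 5.76 RPKM ipsilaterally against 0.49 RPKM contralaterally at 21 months, and at 8.15 against 0.61 RPKM at 13 months. The sides did not overlap, and the plain ratios were 11.8-fold and 13.4-fold. The log2 ratios were 2.18 and 2.51, and in limma Kcnn4 rose by 2.34 ± 0.17 (SE, 2 libraries a side; adjusted p = 1.3e-09), in place 120 of 12136 genes. Without the filter on low values the adjusted p in limma was 0.0842 and the call was lost, in a setting where 0 of 17753 genes were called. The small-conductance genes of the same family behaved otherwise. Kcnn2, the most abundant of them, had 9.66 against 11.2 RPKM at 21 months and 7.7 against 11.1 RPKM at 13 months, ipsilateral first. Kcnn1 had log2 ratios of -0.05 and -0.27, and Kcnn3 of 0.19 and 0.01, 21 months first.

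Kcnk13 (ENSRNOG00000047363, chromosome 6) encodes THIK-1, the K2P channel that sets the resting potential of microglia and is tied to their surveillance and interleukin release. It had 1.71 RPKM ipsilaterally against 0.76 RPKM contralaterally at 21 months and 1.97 against 0.84 RPKM at 13 months. The plain ratios were 2.25-fold and 2.35-fold. After adding 1 RPKM the log2 ratios were 0.62 and 0.69, 21 months first, so Kcnk13 was not counted above as 2-fold higher. In limma it rose by 0.66 ± 0.17 (SE, adjusted p = 0.00858), a call that, like those of all genes, was lost without the filter (adjusted p = 0.115). Both ipsilateral libraries were above both contralateral ones, by a similar amount at each age.

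Kcnk6 (ENSRNOG00000020598, chromosome 1) encodes TWIK-2, a K2P channel described in mouse macrophages as the potassium efflux route that activates the NLRP3 inflammasome. Its values were 1.02 against 0.7 RPKM at 21 months and 1.87 against 0.43 RPKM at 13 months, ipsilateral first. The log2 ratio was 0.25 at 21 months and 1.0 at 13 months, and the difference, 21 months minus 13 months, was the lowest of the 61 members, at -0.76. limma gave a rise of 0.63 ± 0.19 (SE, adjusted p = 0.0262), but adjusted p was 0.108 with libraries scaled to equal sums without mitochondrial genes, 0.129 without the age term and 0.353 without the filter.

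Markers of immune cells were higher on the same side. Of 12 microglia markers 11 were matched and tested and 10 rose in limma, with summed levels of 646 RPKM ipsilaterally against 197 RPKM contralaterally at 21 months, and 590 against 211 RPKM at 13 months. Of 12 monocyte and macrophage markers 11 were tested and 10 rose, with sums of 1297 against 65.9 RPKM at 21 months and 2271 against 120 RPKM at 13 months. Of 10 T and NK cell markers 4 were tested and 4 rose, although 3 of these, and 2 of the macrophage markers, had contralateral means under 1 RPKM and had to be higher ipsilaterally to be tested. The T and NK cell sums were 30.8 against 7.73 RPKM at 21 months and 49.5 against 7.73 RPKM at 13 months. Most of these sums came from Cd4 (19.0 and 14.5 RPKM ipsilaterally, 21 months first) and Cd8a (8.32 and 21.8 RPKM). Cd3d, Cd3e, Cd3g, Nkg7, Gzmb and Klrd1 were under the filter, at 1.6 RPKM or less in every library. Klrd1 was listed at 0 in the 21 month ipsilateral and 13 month contralateral libraries, Gzmb in the 13 month contralateral one and Ccr2 in the 21 month contralateral one. Of 8 neutrophil markers 7 were matched, and the 3 tested, S100a8, S100a9 and Csf3r, rose. Mpo, Cxcr2, Fpr1 and Ngp were under the filter. Ngp was lower ipsilaterally, at 0.06 against 0.21 RPKM at 21 months and 0.06 against 0.17 RPKM at 13 months. Reactive astrocyte markers (8 of 8 tested) rose as well, although Osmr passed the filter only through its ipsilateral values. Choroid plexus markers fell (5 of 8 tested). The part of these cells in the rise of Kcnn4, Kcnk13 and Kcnk6 was not tested. In bulk tissue, more cells of a type and more RNA per cell cannot be told apart, nor can fewer cells and less RNA per cell.

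**Figure D3:**
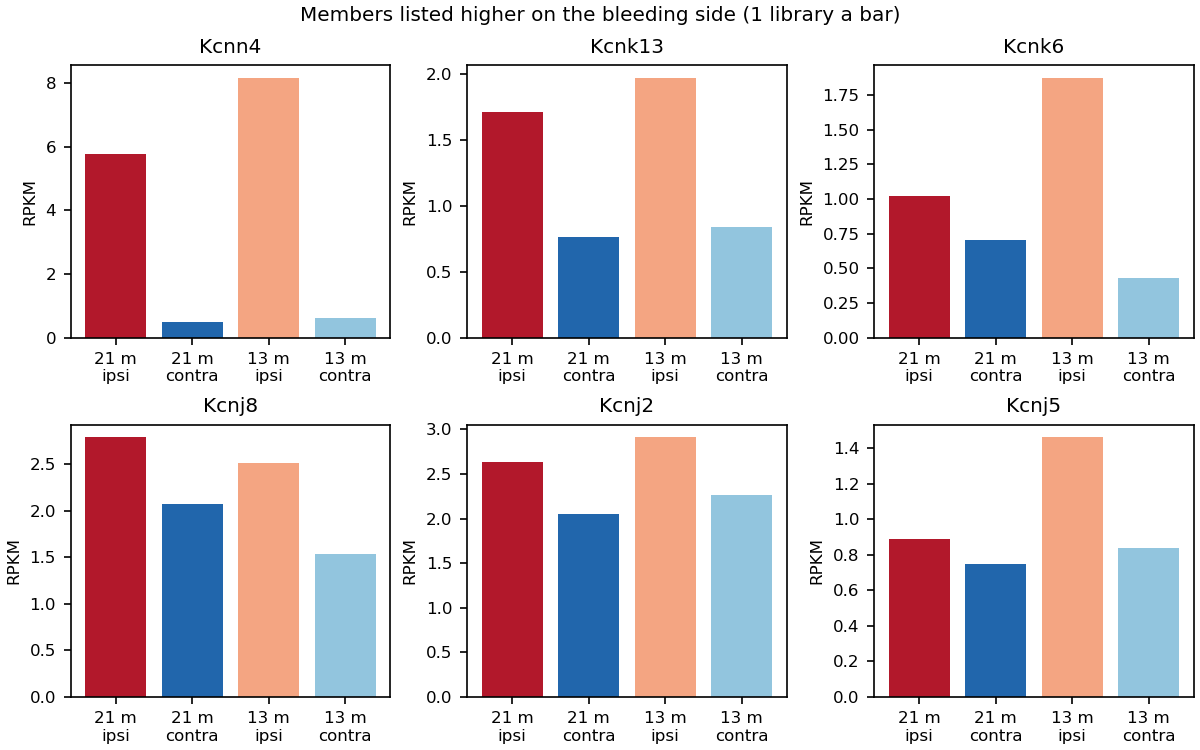
RPKM of 6 members listed higher on the bleeding side at both ages, picked after their values were seen and including Kcnj5, which is under the filter, each bar being 1 library (21 months left of 13 months, ipsilateral left of contralateral, y axes from 0 and different for each gene). Kcnn4 stands at 5.76 and 8.15 RPKM ipsilaterally and 0.49 and 0.61 RPKM contralaterally, while Kcnj2 and Kcnj8 differ by less than 1.7-fold at either age.

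Among Kir genes, 14 members of which 11 passed the filter, the sums were 71.5 RPKM ipsilaterally against 91.0 RPKM contralaterally at 21 months and 72.3 against 93.2 RPKM at 13 months. The medians of the log2 ratio were -0.29 and -0.38, 21 months first, so this family was lower by a similar amount at both ages. Kcnj10, the main potassium uptake channel of astrocytes (Kir4.1), had 10.1 against 12.2 RPKM at 21 months and 8.27 against 12.3 RPKM at 13 months. Its partner Kcnj16 (Kir5.1) had 11.3 against 16.5 RPKM at 21 months, the lowest log2 ratio of any member at that age (-0.50), and 14.3 against 17.7 RPKM at 13 months. Neither passed in limma, with adjusted p of 0.17 and 0.152. General astrocyte markers had sums of 1872 against 1647 RPKM at 21 months and 1634 against 1721 RPKM at 13 months. Of 10 tested, 3 were below 0 at 21 months (median 0.12) and 7 at 13 months (median -0.22), and 0 passed in limma. The part of astrocytes in the Kcnj10 and Kcnj16 values was not tested.

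The G protein-gated Kir genes, whose channels open when inhibitory transmitters act on neurons, were lower at both ages where they passed the filter. Kcnj9 had 18.0 against 24.8 RPKM at 21 months and 18.9 against 24.9 RPKM at 13 months, and its 2 ipsilateral values lay close together and apart from the contralateral ones. Kcnj3 had log2 ratios of -0.29 and -0.41, and Kcnj6 of -0.34 and -0.46, 21 months first. Kcnj5, better known from the heart, was just under the filter and higher ipsilaterally, at 0.89 against 0.75 RPKM at 21 months and 1.46 against 0.84 RPKM at 13 months. The strong rectifier genes Kcnj4 and Kcnj12 had log2 ratios of -0.34 and -0.35 at 21 months and of -0.43 and -0.40 at 13 months. Kcnj14, of the same group, had 2.41 RPKM on both sides at 21 months and 2.12 against 2.88 RPKM at 13 months. Kcnj2 (Kir2.1), also of this group and known from microglia and vessels, was higher at both ages. It had 2.63 against 2.05 RPKM at 21 months and 2.91 against 2.26 RPKM at 13 months.

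The 2 pore genes of ATP-sensitive channels lay on opposite sides of 0. Kcnj8, the pore subunit of vascular and pericyte channels, had 2.79 against 2.07 RPKM at 21 months and 2.52 against 1.54 RPKM at 13 months. Kcnj11, that of neuronal and endocrine channels, had 5.25 and 6.41 RPKM at 21 months and 4.69 and 6.41 RPKM at 13 months, ipsilateral first. Kcnj8 did not pass in limma (0.39 ± 0.17, SE, adjusted p = 0.162), and its partner Abcc9, the sulfonylurea receptor of vessels, had log2 ratios of -0.01 and 0.17, 21 months first. Of 8 pericyte and smooth muscle markers 2 rose, Anpep, which passed the filter only through its ipsilateral values, and Tagln. Of the 8, 5 were below 0 at 21 months (median -0.09) and 2 at 13 months (median 0.12), and their part in the Kcnj8 values was not tested.

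The table of RefSeq promoter windows used here (build GRCr8) matched 59 of the 88 members. They are shown for Kcnk13, Kcnj8 and Kcnj2, members higher ipsilaterally at both ages; for Kcnn4 and Kcnk6 none is shown. These windows and the letters searched were chosen after the members' values and the matches in all their windows had been seen, and other windows had been considered before. Each covers 250 bases before to 50 bases after the annotated gene start, on the gene's strand. Capitals mark matches to the letters searched on both strands, which were TGANTCA for AP-1, GAGGAAGT for PU.1 and TGACGTCA for CRE and TATAAA for the TATA box.
Kcnk13, chr6:124971559-124971858, plus strand: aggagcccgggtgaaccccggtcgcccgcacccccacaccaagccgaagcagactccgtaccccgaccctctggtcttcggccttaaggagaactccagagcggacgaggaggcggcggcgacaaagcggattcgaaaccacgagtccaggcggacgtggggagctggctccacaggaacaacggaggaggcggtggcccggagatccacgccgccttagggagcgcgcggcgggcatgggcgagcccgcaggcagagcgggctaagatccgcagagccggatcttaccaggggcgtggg
Kcnj8, chr4:177246499-177246798, minus strand: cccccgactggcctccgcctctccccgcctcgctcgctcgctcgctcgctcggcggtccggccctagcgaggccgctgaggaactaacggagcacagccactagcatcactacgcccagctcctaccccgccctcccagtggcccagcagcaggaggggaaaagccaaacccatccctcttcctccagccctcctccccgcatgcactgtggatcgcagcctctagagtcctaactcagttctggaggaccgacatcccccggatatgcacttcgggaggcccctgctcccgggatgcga
Kcnj2, chr10:96559975-96560274, plus strand: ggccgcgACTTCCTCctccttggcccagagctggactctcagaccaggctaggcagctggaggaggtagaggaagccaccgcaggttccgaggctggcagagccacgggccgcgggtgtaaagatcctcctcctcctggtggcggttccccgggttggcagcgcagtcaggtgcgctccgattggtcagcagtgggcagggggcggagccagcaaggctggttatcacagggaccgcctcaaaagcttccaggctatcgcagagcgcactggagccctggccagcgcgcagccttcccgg

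These windows held 69.0%, 67.0% and 67.0% G and C, against a median of 61% over the 59 members and 52.3% over 27457 promoters. The only match in them was the PU.1 pattern near the far end of the Kcnj2 window, on the minus strand. Over the 59 members, AP-1 letters occurred in 3 (Kcne1, Kcnj1 and Kcnj16), PU.1 letters in 3 (Kcnj2, Kcnj5 and Kcnj14), CRE letters in 0 and TATA letters in 1. Over all promoters the shares with a match were 7.33% for AP-1, 2.44% for PU.1, 1.91% for CRE and 14.3% for TATA. A match describes letters and no binding.

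The remaining K2P genes carry background potassium currents. Kcnk1 (TWIK-1) had 20.8 against 25.4 RPKM at 21 months and 19.2 against 25.7 RPKM at 13 months, ipsilateral first. Kcnk2 (TREK-1), a mechanosensitive and lipid-sensitive channel of neurons and astrocytes, had 12.3 RPKM in both ipsilateral libraries and 15.9 RPKM in both contralateral ones. Its log2 ratio was thus the same at both ages, -0.35 and -0.34, and did not pass in limma (adjusted p = 0.227). Kcnk3 (TASK-1) and Kcnk4 (TRAAK) had log2 ratios of -0.02 and -0.18 at 21 months and of -0.37 and -0.40 at 13 months. Kcnk5 stayed at or below 0.21 RPKM.

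Kv pore genes, which shape the action potential, had a median log2 ratio below 0 at 13 months in each family. In the Kv1 (Shaker) family, known at axons and terminals, Kcna4 had 8.89 against 11.6 RPKM at 21 months and 8.37 against 12.5 RPKM at 13 months. Kcna1 had log2 ratios of -0.23 and -0.19, and Kcna2 of 0.22 and -0.12, 21 months first. Kcna5 lay near 0 at both ages (0.08 and -0.08). The Kv4 gene Kcnd3, for a fast-inactivating current of dendrites and cell bodies, had log2 ratios of -0.33 and -0.43, 21 months first.

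Kv3 (Shaw) genes serve fast-spiking neurons. All 4 were lower at both ages, against 38.9% of all genes at 21 months and 48.9% at 13 months. Their summed levels were 42.4 against 47.9 RPKM at 21 months and 33.3 against 48.7 RPKM at 13 months. Kcnc1 had 14.6 against 16.4 RPKM at 21 months and 11.7 against 17.2 RPKM at 13 months. Kcnc2 had 7.56 against 10.4 RPKM at 21 months and 6.39 against 9.57 RPKM at 13 months. Both ipsilateral values of each gene lay below both contralateral ones. Kcnc2 had the smallest adjusted p among members with lower values (limma, -0.46 ± 0.17, SE, adjusted p = 0.0784). With median-ratio scaling Kcnc2 and Kcna4 fell in limma (adjusted p under 0.05), 2 of 61 members against 253 of 12136 genes. The 7 interneuron markers, Pvalb, Gad1, Gad2, Erbb4, Lhx6, Sst and Vip, had medians of -0.04 and -0.37, 21 months first. Below 0 were 5 of them at 21 months and 7 at 13 months. The calcium buffer gene Pvalb, of fast-spiking cells, had 60.4 against 69.9 RPKM at 21 months and 48.0 against 66.4 RPKM at 13 months. Sst was higher ipsilaterally at 21 months, at 67.0 against 46.3 RPKM, and lower at 13 months, at 36.7 against 44.4 RPKM.

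The Kv7 genes, whose channels carry the M-current that restrains repetitive firing, had a higher median side ratio at 21 than at 13 months. Kcnq3 had 1.99 against 1.94 RPKM at 21 months and 1.81 against 2.49 RPKM at 13 months. The family median was 0.02 at 21 months, which was -0.05 under either other scaling, and -0.41 at 13 months. In the EAG, ERG and ELK group, Kcnh3, a channel of forebrain neurons, had 12.7 against 12.3 RPKM at 21 months and 8.91 against 11.97 RPKM at 13 months. Kcnma1, the BK pore gene, had 3.43 against 3.73 RPKM at 21 months and 2.52 against 3.76 RPKM at 13 months.

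Silent Kv subunits alter Kv2 channels. All 8 that passed the filter were lower at 13 months, where 55 of 61 members and 48.9% of all genes were. At 21 months 3 of 8 were lower, near the 38.9% of all genes, and the median was 0.01, or -0.07 under either other scaling. Kcng1 had the lowest log2 ratio of any member at 13 months, -0.70, from 2.68 against 4.97 RPKM, while at 21 months it had 3.83 against 4.48 RPKM. Kcng4 had 2.12 against 1.52 RPKM at 21 months and 1.59 against 2.03 RPKM at 13 months.

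Auxiliary subunits had a median difference of the side ratio, 21 months minus 13 months, of 0.43 (7 members), against 0.45 for the 8 silent subunits and 0.16 for the 45 pore subunits. Their summed level, mostly that of Kcnab2 and Kcnmb4, was 219 RPKM ipsilaterally against 209.9 RPKM contralaterally at 21 months, and 160.3 against 231 RPKM at 13 months. Kcnab1, a Kv1 partner that speeds inactivation, had 18.3 against 20.3 RPKM at 21 months and 13.8 against 23.0 RPKM at 13 months. The KChIP genes Kcnip3 and Kcnip4, calcium-binding partners of Kv4 channels, had log2 ratios of -0.14 and -0.12 at 21 months and of -0.24 and -0.55 at 13 months. Kcnip1 had 7.56 against 8.37 RPKM at 21 months and 5.31 against 6.62 RPKM at 13 months. The 4 KCNE genes analysed were all under the filter, with Kcne1 at 0.05 RPKM or less.

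**Figure D4:**
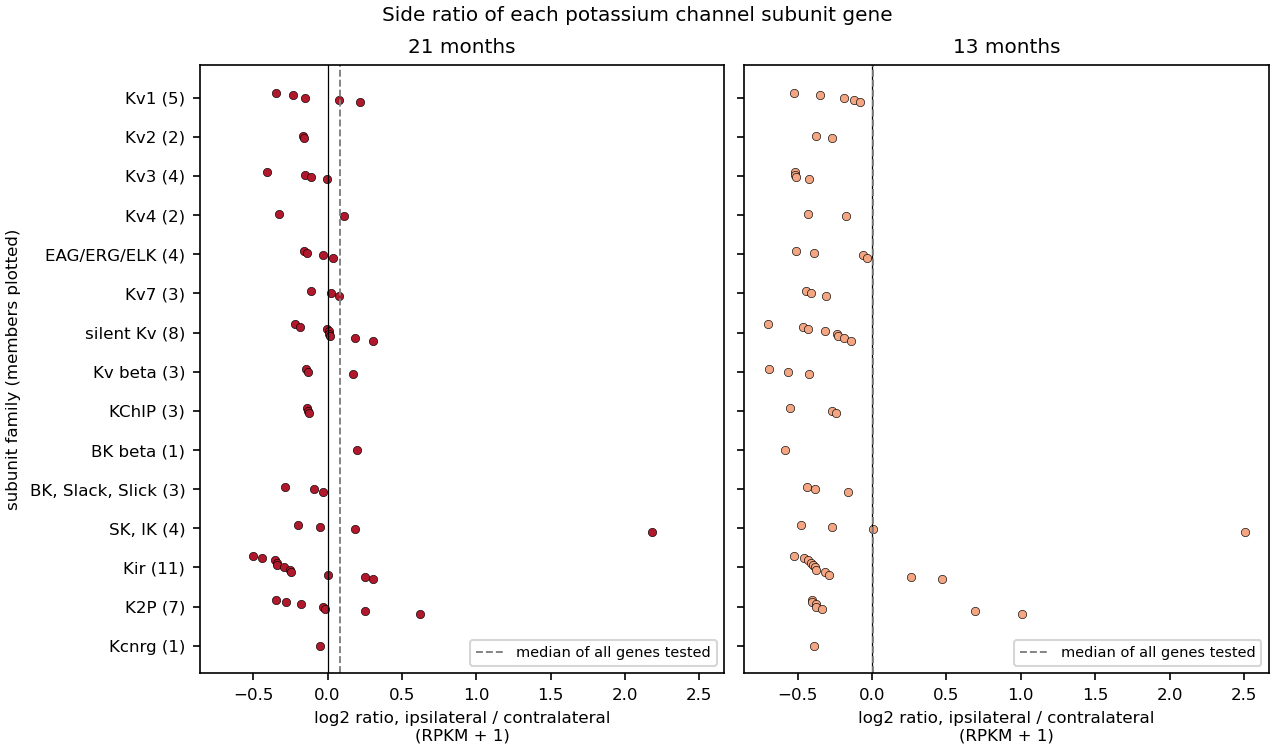
Log2 side ratio, ipsilateral over contralateral (RPKM + 1; x axis), for each of 61 members, by subunit family (y axis, with the number of members), at 21 months (left) and 13 months (right). Each point is 1 gene from 1 pair of libraries, the solid line marks 0 and the dashed line the median of all genes tested. At 13 months only Kcnn3, Kcnn4, Kcnj2, Kcnj8, Kcnk6 and Kcnk13 lie above 0. Of these Kcnn3, at 0.006, was at -0.006 with median-ratio scaling and -0.055 with equal sums without mitochondrial genes.

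The difference of the side ratio, 21 months minus 13 months, asked whether age altered the contrast. It was above 0 for 51 of 61 members, against 55.7% of all genes tested, with a median of 0.20, against 0.05. Of the 41 members below 0 at both ages, 36 were nearer to 0 at 21 months, a count not made over all genes. The difference reached 1.5-fold upward for Kcnmb4 (0.79) and Kcnab2 (0.74), 2 members against 6.31% of all genes, and downward for Kcnk6, 1 member against 4.81%. With 1 library a group the difference has no test. Set against the contralateral library of the other age, a comparison added after the values were seen, 52 of 61 members were lower in the 13 month ipsilateral library (median -0.35) and 45 of 61 in the 21 month one (median -0.14). All genes were not counted in this way, so these counts describe the members only.

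The ages were then compared on each side. On the ipsilateral side 50 of 61 members had a higher value at 21 than at 13 months, against 53.9% of all genes, with a median log2 ratio of 0.17, against 0.03. Only Kcnmb4 (0.62) was higher by at least 1.5-fold, 1 member against 3.99% of all genes, and 0 were lower by as much, against 4.2%. Kcnab2 (0.53), Kcnh3 (0.46) and Kcnip1 (0.44) came next, and Kcnk6 (-0.51), Kcnn4 (-0.44), Kcnj16 (-0.31) and Kcnk13 (-0.13) were lowest. On the contralateral side 20 of 61 were higher at 21 months, against 40.8% of all genes, with a median of -0.04, against -0.03. There 0 members were higher by 1.5-fold, against 0.651% of all genes, and 0 lower, against 0.387%, the extremes being Kcnip1 (0.30) and Kcng4 (-0.27). The comparisons on the 2 sides share no library, whereas each shares libraries with the side comparisons.

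**Figure D5:**
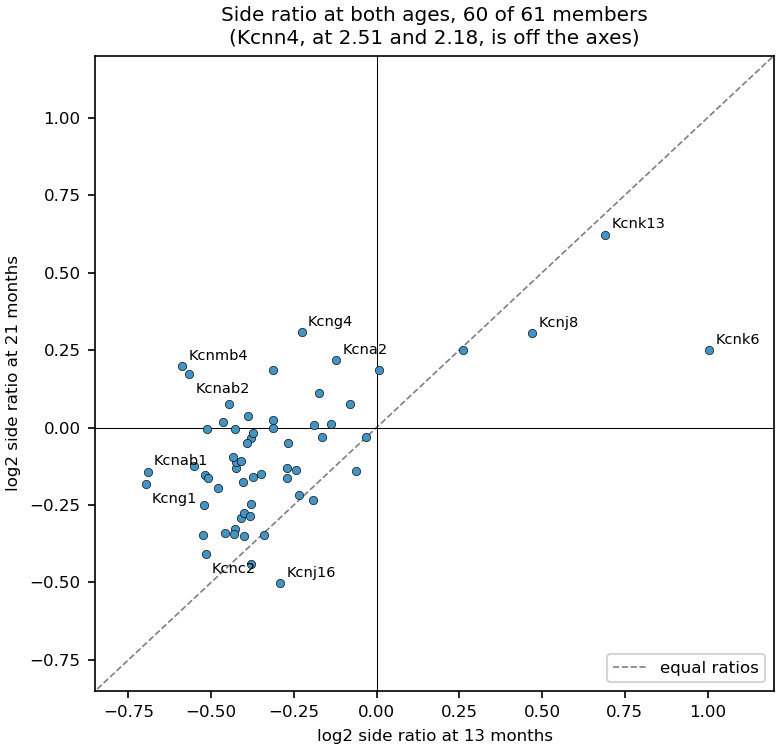
Log2 side ratio (ipsilateral over contralateral, RPKM + 1) of 60 of 61 members at 13 months (x axis) and 21 months (y axis), each point being 1 gene. Most points lie above the dashed line of equal ratios, with Kcnmb4 (-0.59 and 0.20, 13 months first as on the axes) and Kcnab2 far above it and Kcnk6 below it. Kcnn4, at 2.51 and 2.18, lies off the axes.

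Neuronal markers are given beside these values because most members are neuronal genes. Of 12 general neuron markers 11 were tested, 2 fell in limma (Nefm and Nefh) and 0 rose, with summed levels of 1732 against 2094 RPKM at 21 months and 1543 against 2138 RPKM at 13 months. Their medians were -0.28 at 21 months and -0.44 at 13 months. The 6 excitatory neuron markers had medians of -0.02 and -0.48, 21 months first. Below 0 were 3 of them at 21 months and 6 at 13 months, and in limma 1 fell and 0 rose. Among them Slc17a7 had 149.6 against 120.2 RPKM at 21 months and 100.5 against 139.6 RPKM at 13 months. Oligodendrocyte markers, whose sums were 2734 against 2254 RPKM at 21 months and 2015 against 2401 RPKM at 13 months, also differed between the ages. Markers of regional neurons were lower as well: 3 of 6 thalamus and habenula markers and 2 of 9 striatal markers fell in limma. The thalamus and habenula medians were -0.35 at 21 months and -0.53 at 13 months, and the striatal ones -0.24 and -0.57 in the same order. Between ages, 21 over 13 months, the striatal median was 0.64 ipsilaterally and 0.29 contralaterally. The part of neurons, of brain regions sampled and of oligodendrocytes in the members' values was not tested.

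Of 47 genes that act with potassium channels 45 were matched and 42 tested. Among these limma called 1 that rose, against 13.3% of all genes tested, and 0 that fell, against 0.824%. The gene that rose was Slc12a7, a potassium-chloride cotransporter that passed the filter only through its ipsilateral values, at 1.95 against 0.95 RPKM at 21 months and 2.79 against 0.94 RPKM at 13 months. The medians of the 42 were -0.08 at 21 months and -0.31 at 13 months. Below 0 were 26 of 42 at 21 months, against 38.9% of all genes, and 34 of 42 at 13 months, against 48.9%. Dpp6, a Kv4 partner, had 47.2 against 57.5 RPKM at 21 months and 41.5 against 57.5 RPKM at 13 months. The sodium-potassium pump gene Atp1b3 had 61.9 against 59.5 RPKM at 21 months and 85.9 against 54.7 RPKM at 13 months.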

How the data were processed

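Per the labels' protocols, polyadenylated RNA was made into directional libraries, 1 for each of 4 groups. The authors deposited RPKM values of 17853 genes, rounded to 0.01. The processing notes of the submitters list cutadapt and TopHat2 among the tools, without their roles, and GRCh38, a human build, although the identifiers are rat Ensembl identifiers, so the build is not settled. Strand use in counting, gene lengths and depth were not stated there.

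Entries sharing a symbol were reduced to the one of highest mean (100 left out). Values were analysed as log2(RPKM + 1) for genes averaging 1 RPKM or more. Ratios of single libraries were counted at 1.5-fold and 2-fold, with no test. limma (version 3.58.1, R 4.3.3) modelled side plus age, two-sided, with eBayes and Benjamini-Hochberg adjustment over all genes. The code was tested on simulated data, where limma called few of the genes changed 2-fold, so a gene that was not called may still differ. Alternatives tried were adding 0.1 RPKM, no filter, a mean of at least 5 RPKM, 2 other scalings, no age term and an intensity trend.

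The members, lists and tests were chosen with earlier results of these data known. Counts below and above 0, ratios across ages, the 0.1 log2 size for opposite directions and moved medians, and the promoter windows and 4 motifs were set after the values were seen. Named members were those highest or lowest in each comparison, called by limma, most abundant, or on a list of 23 well-known subunits, of which 20 were in the table. Kcnd1, Kcne3, Kcng2, Kcnj1, Kcnj3, Kcnj11, Kcnk3, Kcnk4, Kcnn1 and Kcnn2 fall outside this rule and were named after their values were seen. Some members and partner genes are counted but not reported here by name. Of 208 entries of marker and partner lists 193 were matched. Gene spans of Kcnab2, Kcnh3 and Kcnj9 overlap another gene of the table in RefSeq (GRCr8), so their reads may not be separable.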

Additional observations from a re-analysis of the deposited data

Results flagged for a closer look

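The side ratios of 6 members pointed in opposite directions at the 2 ages, each by more than 0.1 on the log2 scale, higher ipsilaterally at 21 months and lower at 13 months. With 1 library a group these differences were not tested. Kcnmb4 had 0.20 at 21 months and -0.59 at 13 months, and Kcnab2 had 0.17 and -0.57 in the same order. Kcng4 had 0.31 and -0.23, Kcng2 0.19 and -0.31, Kcna2 0.22 and -0.12, and Kcnd1 0.11 and -0.17, 21 months first. Under median-ratio scaling and equal sums the 21 month values were smaller, at 0.09 and 0.09 for Kcnmb4, 0.07 and 0.06 for Kcnab2, and 0.05 and 0.05 for Kcnd1, all under 0.1. Under equal sums Kcng2 was also under 0.1, at 0.096. Kcna2 and Kcng4 stayed above 0.1 under both, and all 6 kept their directions at both ages. Members in the reverse arrangement, lower at 21 months and higher at 13 months, numbered 0 of 61. Neither arrangement was counted over all genes.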

How the results depend on the processing

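The lower values of most members held under every alternative listed: the 13 month median stayed between -0.27 and -0.46 and the 21 month median between -0.05 and -0.22. Without a filter the 13 month median was -0.27, and with equal sums without mitochondrial genes the 21 month median was -0.22. With a mean of at least 5 RPKM, 26 of 30 members were below 0 at 21 months and 30 of 30 at 13 months, and 0 were higher by 1.5-fold or 2-fold at either age, since Kcnn4, Kcnk13 and Kcnk6 were not in that set. Adding 0.1 RPKM gave 2 members higher by 2-fold at 21 months, 8 lower by 1.5-fold at 13 months, 4 higher and 1 lower by 1.5-fold between ages ipsilaterally, 1 higher contralaterally, and for the difference of the side ratio 7 upward by 1.5-fold and 1 downward by 2-fold. Median-ratio scaling gave 1 member higher and 1 lower by 1.5-fold at 21 months, 1 higher by 2-fold at 13 months, and 0 higher by 1.5-fold between ages ipsilaterally. Equal sums gave 1 higher and 1 lower by 1.5-fold at 21 months, and 1 higher by 2-fold and 11 lower by 1.5-fold at 13 months. Against the contralateral library of the other age, 1 member was higher and 1 lower by 1.5-fold at 21 months, and at 13 months 1 was higher by 2-fold and 1 lower by 1.5-fold. These were not counted over all genes either. The difference of the side ratio had 0 members downward by 1.5-fold with a mean of at least 5 RPKM.

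In limma 0 members rose without a filter, where 0 genes of any kind were called (at an unadjusted p under 0.05 there were 2634 with higher and 717 with lower values) and 6 members were higher and 14 lower at that p; the cause was not tested. With a mean of at least 5 RPKM 0 members rose, against 841 of 8011 genes. With median-ratio scaling 2 of 61 members fell, Kcna4 and Kcnc2, against 253 of 12136 genes. Adjusted p over the alternatives ran from 2.14e-14 to 0.0842 for Kcnn4, from 0.000604 to 0.115 for Kcnk13 and from 0.00518 to 0.353 for Kcnk6. Leaving out the libraries of 1 age leaves the side ratio of the other, given above, with no test. The age term in limma pairs the 2 sides at each age, and without it 2 members rose and 0 fell, against 1193 and 27 of 12136 genes. Of the recomputed counts and medians, 125 stayed within 1.5 times or 0.1 on the log2 scale, many of them counts that stayed at 0, and 31 moved by more. Among values of single members 290 stayed, 43 moved and 5 lost their limma call. Unknown depth limits all values near or below 1 RPKM.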

Other observations

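Some members under the filter, picked out after their values were seen, were also listed higher on the bleeding side. Kcne3, an accessory subunit of voltage-gated channels in epithelia and muscle, had 0.39 against 0.08 RPKM at 21 months and 0.53 against 0.11 RPKM at 13 months, plain ratios of 4.88-fold and 4.82-fold. Kcne4 had 0.74 against 0.46 RPKM at 21 months and 0.83 against 0.49 RPKM at 13 months. Both lie where rounding and unknown depth leave values least certain. Among members under the filter with the highest single values, Kcne5 had 0.81 against 0.97 RPKM at 21 months and 0.91 against 0.83 RPKM at 13 months, Kcnh4 had 0.55 RPKM on both sides at 21 months and 0.33 against 0.6 RPKM at 13 months, and Kcnh6 had 0.45 against 0.59 RPKM and 0.35 against 0.65 RPKM, 21 months first.

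Across the 61 members, which are not independent replicates and share libraries, Pearson's r between the side ratios at 21 and 13 months was 0.84 and Spearman's rho was 0.44. Without Kcnn4 these were 0.58 and 0.41, and over all 12136 genes they were 0.77 and 0.52.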
